A study of Mus musculus with 4 samples.

Results

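Chemokines are small secreted proteins, and with their receptors they formed the set of genes described here. The set was taken by name: every gene symbol of the expression table made of Ccl, Cxcl, Ccr, Cxcr, Cx3cl, Cx3cr, Xcl, Xcr or Ackr, a number and at most 1 letter, with 1 symbol left out. This gave 58 of the 24346 gene symbols, 36 for chemokines and 22 for receptors.

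Chemokines bind to heparan sulfate on cell surfaces and matrix and signal through receptors coupled to inhibitory G proteins, which direct the migration of leukocytes. CC chemokines act mostly on monocytes, macrophages and lymphocytes, ELR CXC chemokines on neutrophils, and interferon-induced CXC chemokines on activated T cells. Atypical receptors bind chemokines without G protein signalling and remove them. In bone marrow, chemokines from stromal and myeloid cells hold leukocytes in the tissue or release them into blood, and several act on the precursors of osteoclasts.

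RNA-seq was performed on mBMSCs, mesenchymal stem/progenitor cells grown from marrow of the femur of C57BL/6 mice 3 months old and wild type. The groups, named siScr and siZBP1, were transfected with a scrambled siRNA or with siRNA against Zbp1, a sensor of Z-form nucleic acids, and RNA was collected 72 h later from 2 samples in each group. All samples were wild type and received Lipofectamine RNAiMAX, the siRNA used for RNA-seq is not named in the sources used here, and the cells were primary cultures selected by adherence after non-adherent cells had been washed off, not a clone. The samples are described as duplicates without saying whether they came from separate cultures or animals, so that p-values measure only the spread between these samples, which may be technical.

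Values are FPKM, fragments scaled to the length of the transcript and to the number of mapped reads, so that levels can be compared between genes. Read numbers were not given, and the spacing of the lowest values placed the depth roughly between 10.7 and 20.1 M fragments per sample. Zbp1 was at 86.0 and 62.0 FPKM in siScr and at 11.5 and 11.6 FPKM in siZBP1, a log2 fold change of -2.56 with a standard error of 0.16 (limma, adjusted p = 0.00322). The labelled cell type was checked against its markers. The 15 stromal markers summed to 6328 and 5354 FPKM in siScr, with Col1a1 at 3066 and 2520 FPKM. Pdgfra and Thy1 of that list were low, at 3.97 and 2.36 FPKM and at 2.06 and 4.49 FPKM. The 25 macrophage markers summed to 12655 and 13790 FPKM in the same samples, with Lyz2 at 2814 and 3647 FPKM. The macrophage receptor gene Csf1r was at 467 and 470.0 FPKM. The cultures therefore held RNA of both kinds. In bulk RNA, fewer cells of a type and less RNA per cell cannot be told apart.

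For the promoters, RefSeq sequence on GRCm38.p6 was on hand for 42 of the 58 genes, 21 of them with a mean of at least 1 FPKM. The 4 sequences shown are the 250 bases before the start site of genes that were higher in siZBP1. Cxcl10 and Ccl9 were the 2 of these with a match to the NF-κB consensus, Ccl6 is the neighbour of Ccl9, and Ccl12 stands for the monocyte chemoattractants. Each sequence runs 5′ to 3′ on the strand of its gene, and capitals mark matches on either strand to 1 of 7 motifs: the NF-κB consensus, TATAAA for the TATA box, TGANTCA for AP-1, TTGCNNAA for C/EBP, GAGGAA for PU.1, GAAANNGAA for the interferon response element, and for TCF/LEF any of CTTTGAA or CTTTGAT or CTTTGTA or CTTTGTT. Cxcl10 lies at chr5:92348890-92349139 on the minus strand, Ccl9 at chr11:83578637-83578886 on the minus strand, Ccl6 at chr11:83593088-83593337 on the minus strand and Ccl12 at chr11:82101595-82101844 on the plus strand.
Cxcl10: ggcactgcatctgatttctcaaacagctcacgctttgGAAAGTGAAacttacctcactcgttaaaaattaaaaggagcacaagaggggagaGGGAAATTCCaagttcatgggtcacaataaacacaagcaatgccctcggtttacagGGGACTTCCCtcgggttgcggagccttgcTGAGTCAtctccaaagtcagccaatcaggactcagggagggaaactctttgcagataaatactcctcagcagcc
Ccl9: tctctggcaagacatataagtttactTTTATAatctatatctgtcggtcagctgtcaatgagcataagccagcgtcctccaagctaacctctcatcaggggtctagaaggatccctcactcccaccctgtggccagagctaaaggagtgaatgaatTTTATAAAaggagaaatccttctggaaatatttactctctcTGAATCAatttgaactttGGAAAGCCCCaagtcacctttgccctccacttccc
Ccl6: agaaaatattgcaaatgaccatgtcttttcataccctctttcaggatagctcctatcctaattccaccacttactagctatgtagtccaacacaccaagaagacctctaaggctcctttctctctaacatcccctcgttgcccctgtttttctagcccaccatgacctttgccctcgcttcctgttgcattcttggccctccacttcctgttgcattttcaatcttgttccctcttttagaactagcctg
Ccl12: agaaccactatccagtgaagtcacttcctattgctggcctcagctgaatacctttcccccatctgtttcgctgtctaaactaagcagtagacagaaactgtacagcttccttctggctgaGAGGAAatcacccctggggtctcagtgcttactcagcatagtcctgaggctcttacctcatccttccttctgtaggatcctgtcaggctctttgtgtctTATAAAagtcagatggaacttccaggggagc

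Cxcl10 held 2 NF-κB matches, GGGAAATTCC from -159 to -150 and GGGACTTCCC from -103 to -94 relative to the start site, with an AP-1 match and an interferon response match beside them. Ccl9 held GGAAAGCCCC from -35 to -26 as its NF-κB match, with an AP-1 match and TATA box matches further upstream. Ccl12 held a TATA box match from -31 to -26 and a PU.1 match. Ccl6 held none of these letters in the window. Whether these matches relate to the changes was not tested.

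The question put to the data was how the loss of Zbp1 changed the expression of these genes. After depletion of ZBP1, 35.7% of the tested genes of the set were higher by limma, beside 13.5% of all tested genes. The shares that were lower were 7.14% and 14.8%. Cxcl16 rose, as did 2 of 5 chemokines made by myeloid cells, Ccl6 and Ccl9, and the receptors Cxcr4, Cx3cr1 and Ccr1. Of 4 tested chemokines that attract monocytes, 2 rose, Ccl12 and Ccl2, each past the threshold in 7 of 10 alternative settings with all samples. Cxcl5, a neutrophil chemokine present at a low level, rose 5.24-fold by the ratio of the group means. The scavenging receptor Ackr4 fell, from a mean of 10.7 to 0.502 FPKM, and the chemokine Cx3cl1 fell while its receptor Cx3cr1 rose.

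Of the 58 genes, 28 had a mean of at least 1 FPKM over all samples and were tested with limma on log2(FPKM + 1) together with all 11959 such genes. Of these 28, 10 were higher and 2 lower in siZBP1 at an adjusted p under 0.05. Among the called genes, Cxcl5 and Ackr4 reached the limit only through the group where they were high. Over all tested genes, 13.5% were higher and 14.8% were lower, against 35.7% and 7.14% of the chemokine and receptor genes. Their log2 fold changes had a median of 0.22, beside 0.00446 for all tested genes. Among chemokines, 7 of 17 tested were higher and 1 lower, and among receptors 3 of 11 were higher and 1 lower. With 2 samples against 2, the smallest p of a two-sided exact permutation test is 0.333, and the calls rest on the variance that limma shares between genes.

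Without regard to the test, siZBP1 values lay wholly above siScr values for 12 of the 28 genes and wholly below for 6, while 10 overlapped. Over all tested genes 34.7% lay wholly above and 33.7% wholly below. By the ratio of group means, 11 genes were over 1.5-fold higher and 5 over 1.5-fold lower, against 4.21% and 8.65% of all tested genes. Of the 10 genes called higher, 9 were also over 1.5-fold higher, and Cxcl10 was not. FPKM summed over the 58 genes was 775 and 860 in siScr and 1171 and 1153 in siZBP1, so that both siZBP1 samples lay above both siScr samples, and the 5 most abundant genes of each sample made up between 62.1% and 66.2% of its sum.

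**Figure D1:**
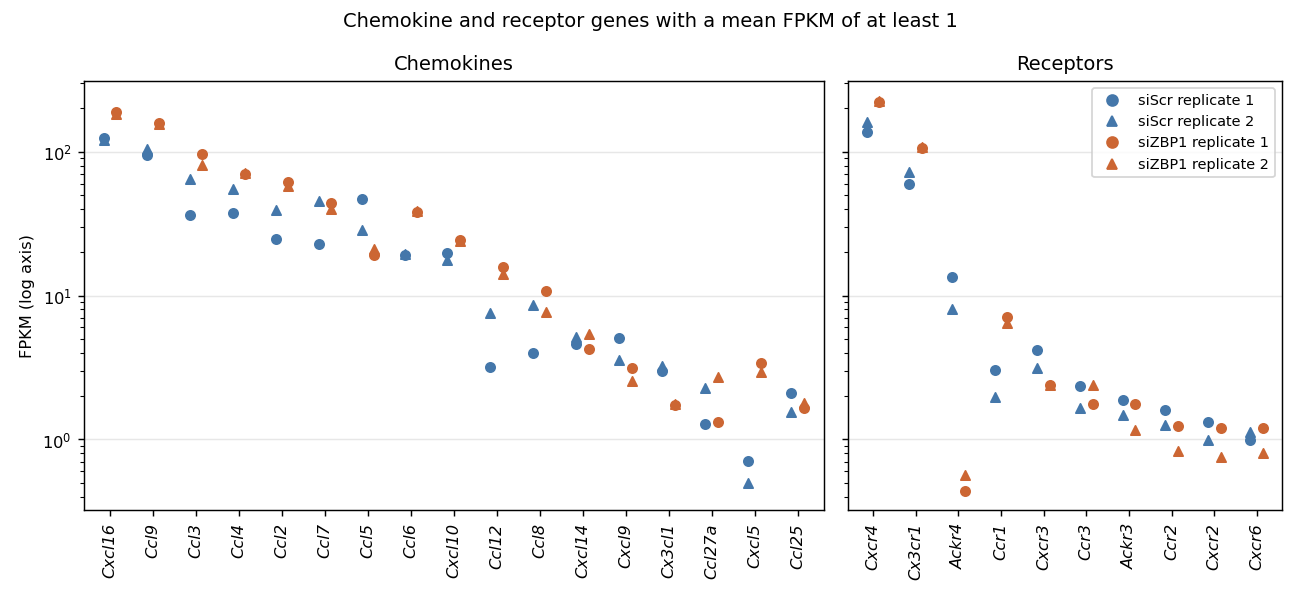
FPKM on a log axis of the chemokine and receptor genes with a mean of at least 1 FPKM that are described in the text, with 1 point for each sample, siScr in blue and siZBP1 in orange. Levels run from under 1 to over 200 FPKM, and Ackr4 shows the widest gap between the groups, with both siZBP1 samples under 1 FPKM.

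Among CC chemokines that attract monocytes, all 4 genes in the table were tested and 2 were higher. Ccl12, a mouse monocyte chemoattractant that acts through CCR2, was at 3.20 and 7.56 FPKM in siScr and at 15.9 and 14.0 FPKM in siZBP1, a log2 fold change of 1.41 with a standard error of 0.35 (limma, adjusted p = 0.0444). Ccl2, the main monocyte chemoattractant, was at 24.6 and 39.4 FPKM in siScr and at 61.1 and 57.5 FPKM in siZBP1, a log2 fold change of 0.91 with a standard error of 0.22 (limma, adjusted p = 0.0431). For both genes the siScr samples lay further apart than the siZBP1 samples, without reaching them. Leaving out siScr replicate 1 brought the log2 fold change to 0.89 for Ccl12 and 0.58 for Ccl2, and leaving out siScr replicate 2 brought it to 1.92 and 1.23. Both genes lost the call with no filter on low values (adjusted p = 0.0696 for Ccl12 and 0.0671 for Ccl2 by limma), with no variance trend and with robust moderation of the variance.

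The other monocyte chemoattractants did not pass the test. Ccl7, which acts through CCR2 and CCR3, was at 23.0 and 45.6 FPKM in siScr and at 44.0 and 40.1 FPKM in siZBP1. Ccl8, expressed by macrophages, was at 3.98 and 8.62 FPKM in siScr and at 10.7 and 7.64 FPKM in siZBP1. In both genes siScr replicate 2 lay within or above the siZBP1 values, and the 95% intervals of the log2 difference ran from -0.48 to 1.21 for Ccl7 and from -0.39 to 1.47 for Ccl8. All 4 genes were lower in siScr replicate 1 than in siScr replicate 2, by a ratio of up to 2.36 for Ccl12, whereas the siZBP1 samples differed by ratios between 1.06 and 1.40.

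CC chemokines made by myeloid cells were more abundant, and 2 of 5 were higher. Ccl6, a chemokine of mouse macrophages that acts through CCR1, was at 19.1 and 19.3 FPKM in siScr and at 37.8 and 38.5 FPKM in siZBP1, a log2 fold change of 0.95 with a standard error of 0.04 and an adjusted p of 0.0023 by limma. Ccl9, another ligand of CCR1, made by osteoclasts and macrophages, was at 94.3 and 105.1 FPKM in siScr and at 156.8 and 155.4 FPKM in siZBP1, with a log2 fold change of 0.64 (adjusted p = 0.00589 by limma). In both genes replicates lay close together, and the gap between groups was larger than the gap between replicates. With each sample left out in turn, the log2 fold change stayed between 0.94 and 0.97 for Ccl6 and between 0.57 and 0.72 for Ccl9. These ranges describe the size of the change and not the call. How the calls fared with a sample left out is given at the end.

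Ccl3 and Ccl4, which attract monocytes and macrophages, separated upwards without passing the test. Ccl3 was at 36.5 and 64.4 FPKM in siScr and at 96.3 and 81.1 FPKM in siZBP1 (adjusted p = 0.0865 by limma). Ccl4 was at 37.4 and 55.0 FPKM in siScr and at 70.0 and 71.4 FPKM in siZBP1 (adjusted p = 0.0659 by limma). Ccl5, a related chemokine that is induced by interferon and by T cell activation, separated the other way, with 47.0 and 28.4 FPKM in siScr and 19.0 and 20.9 FPKM in siZBP1 and a log2 fold change of -0.84 (adjusted p = 0.0617 by limma). Leaving out siScr replicate 1 brought the log2 fold change to 0.45 for Ccl3, 0.36 for Ccl4 and -0.49 for Ccl5, and leaving out siScr replicate 2 brought it to 1.25, 0.90 and -1.20 (adjusted p = 0.0294, 0.0166 and 0.0214 by limma). Ccl4 also passed without siScr replicate 1 (adjusted p = 0.0390 by limma). For Ccl3 and Ccl4 siScr replicate 1 was the lower of the pair, and for Ccl5 it was the higher.

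Among chemokines for neutrophils, Cxcl5 alone was tested, and its mean reached 1 FPKM only through the siZBP1 samples. Cxcl5, an ELR CXC chemokine that acts through CXCR2, was at 0.713 and 0.502 FPKM in siScr and at 3.41 and 2.95 FPKM in siZBP1, a log2 fold change of 1.38 with a standard error of 0.14 (limma, adjusted p = 0.00628). Cxcl1, which lies near it on chromosome 5 and is also a ligand of CXCR2, had 0.196 and 0.222 FPKM in siScr and 1.37 and 1.29 FPKM in siZBP1, but its mean was under 1 FPKM and it was not tested. Both genes were low in siScr and clearly separate in siZBP1. From the rough depth and the longest transcript, the Cxcl1 values stand for about 5.49 and 8.37 fragments in siScr and 27.6 and 41.9 fragments in siZBP1. With genes down to a mean of 0.1 FPKM included, Cxcl1 passed, with an adjusted p of 0.00614 by limma. Cxcl2, a further chemokine of this kind, overlapped between groups, at 0.407 and 0.675 FPKM in siScr and 0.564 and 0.283 FPKM in siZBP1.

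Interferon-induced CXC chemokines did not move together. Cxcl10, a ligand of CXCR3, was at 19.6 and 17.7 FPKM in siScr and at 24.2 and 23.8 FPKM in siZBP1, a log2 fold change of 0.35 with a standard error of 0.06 (limma, adjusted p = 0.0230). Cxcl9, another ligand of CXCR3, was at 5.05 and 3.59 FPKM in siScr and at 3.15 and 2.55 FPKM in siZBP1 (adjusted p = 0.120 by limma). Cxcr3, their receptor on activated T cells, was at 4.16 and 3.13 FPKM in siScr and at 2.40 and 2.38 FPKM in siZBP1 (adjusted p = 0.0790 by limma). Values of all 3 genes separated, upwards for Cxcl10 and downwards for Cxcl9 and Cxcr3. The call for Cxcl10 was lost without siScr replicate 2, where its adjusted p was 0.0542 by limma.

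Cxcl16 and Cx3cl1, the 2 chemokines made as membrane proteins and shed by ADAM proteases, changed in opposite directions. Cxcl16, the ligand of CXCR6 and a scavenger receptor of macrophages, was at 125.1 and 120.7 FPKM in siScr and at 188.3 and 181.2 FPKM in siZBP1, a log2 fold change of 0.58 with a standard error of 0.04 (limma, adjusted p = 0.00389), and it was the most abundant chemokine of the set. Cx3cl1, the ligand of CX3CR1, was at 3.00 and 3.26 FPKM in siScr and at 1.73 and 1.77 FPKM in siZBP1, a log2 fold change of -0.58 with a standard error of 0.10 (limma, adjusted p = 0.0200). Groups were apart in both genes. The call for Cx3cl1 was lost without siScr replicate 1, where its adjusted p was 0.0520 by limma. Cxcl14, a chemokine of epithelial and stromal cells, overlapped at 4.63 and 5.18 FPKM in siScr and 4.22 and 5.41 FPKM in siZBP1.

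Of the homeostatic CC chemokines, 2 were tested and neither passed. Ccl25, which guides T cells to thymus and gut, was at 2.09 and 1.56 FPKM in siScr and at 1.66 and 1.80 FPKM in siZBP1. Ccl27a, a ligand of CCR10, was at 1.29 and 2.27 FPKM in siScr and at 1.32 and 2.70 FPKM in siZBP1. Both overlapped, and for Ccl27a the replicates of each group differed by more than the groups did.

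**Figure D2:**
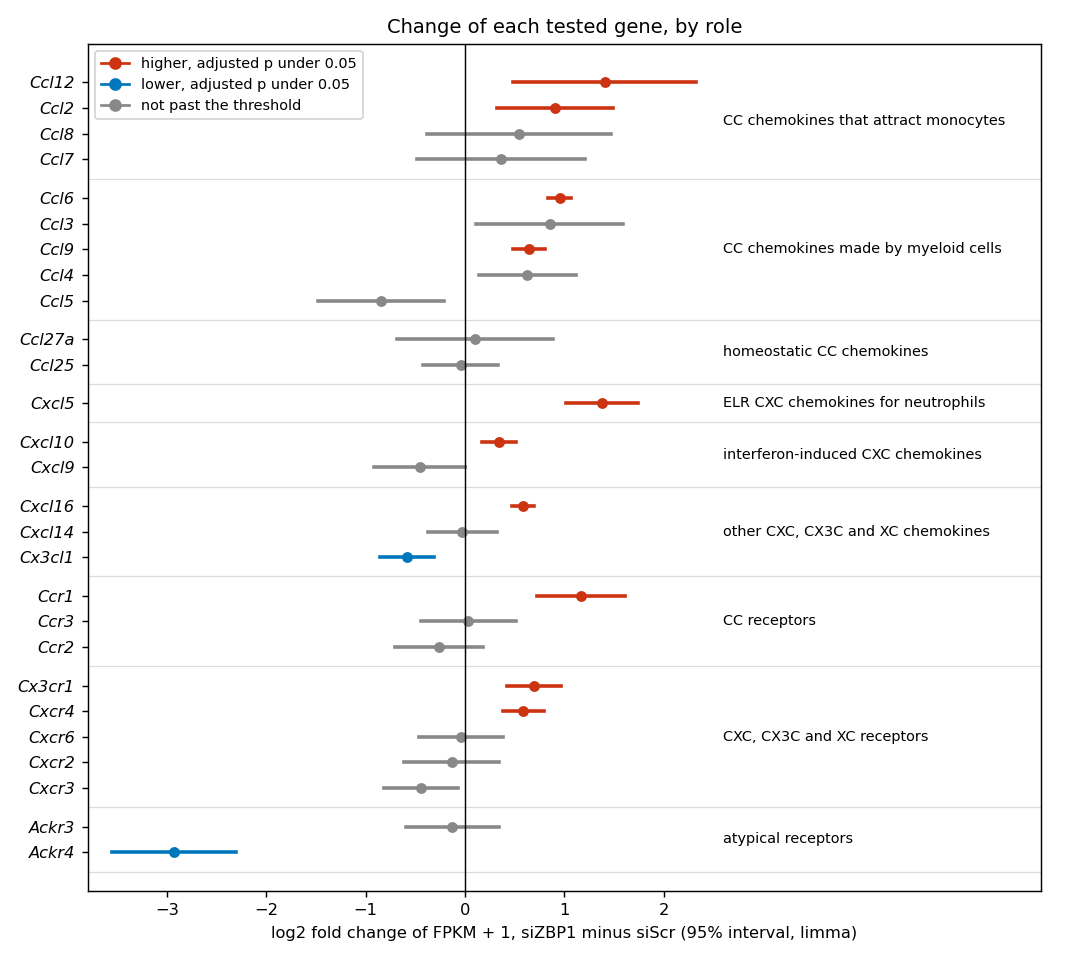
Log2 fold change of FPKM + 1, siZBP1 minus siScr, for the tested genes described in the text, by role, with 95% intervals from limma. Red marks the 10 genes that were higher and blue the 2 that were lower at an adjusted p under 0.05. Ackr4 lies at -2.93, far from all other genes shown.

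Among CC receptors, 1 of 4 tested was higher. Ccr1, a receptor of monocytes, macrophages and osteoclast precursors for Ccl3, Ccl5, Ccl6 and Ccl9, was at 3.03 and 1.99 FPKM in siScr and at 7.12 and 6.49 FPKM in siZBP1, a log2 fold change of 1.17 with a standard error of 0.17 (limma, adjusted p = 0.0126). Ccr2, the receptor of Ccl2, Ccl7 and Ccl12 on monocytes, was near the limit at 1.61 and 1.26 FPKM in siScr and 1.24 and 0.836 FPKM in siZBP1 (adjusted p = 0.312 by limma). Ccr3, the eotaxin receptor of eosinophils, overlapped at 2.37 and 1.64 FPKM in siScr and 1.77 and 2.37 FPKM in siZBP1.

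Among CXC and CX3C receptors, 2 of 5 tested were higher and they were the most abundant ones. Cxcr4, which retains haematopoietic cells in the marrow, was at 137.9 and 159.8 FPKM in siScr and at 220.9 and 226.3 FPKM in siZBP1, a log2 fold change of 0.59 with a standard error of 0.08 (limma, adjusted p = 0.0109). Cx3cr1, the fractalkine receptor of monocytes and resident macrophages, was at 59.2 and 72.7 FPKM in siScr and at 106.8 and 107.3 FPKM in siZBP1, a log2 fold change of 0.70 with a standard error of 0.10 (limma, adjusted p = 0.0135). In both, the lowest siZBP1 value was well above the highest siScr value. Cxcr2, the receptor of ELR CXC chemokines, was at 1.33 and 0.996 FPKM in siScr and 1.21 and 0.753 FPKM in siZBP1. Cxcr6, the receptor of Cxcl16, was at 0.985 and 1.12 FPKM in siScr and 1.20 and 0.810 FPKM in siZBP1. Neither separated between groups.

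Of the atypical receptors, Ackr4 fell and Ackr3 did not pass. Ackr4, which binds and removes Ccl19, Ccl21 and Ccl25, was at 13.4 and 8.12 FPKM in siScr and at 0.439 and 0.566 FPKM in siZBP1, a log2 fold change of -2.93 with a standard error of 0.24 (limma, adjusted p = 0.00450). Both siZBP1 values were far under both siScr values, and the mean in siScr was 21.4 times that in siZBP1. The log2 scale with 1 FPKM added understates the change of such a low gene, and the log2 fold change was -4.13 with 0.1 FPKM added and -1.95 with 3 FPKM added. Ackr3, an atypical CXC receptor, was at 1.89 and 1.47 FPKM in siScr and 1.76 and 1.17 FPKM in siZBP1. Of the chemokines Ackr4 removes, Ccl19 was at most at 0.176 FPKM and Ccl25 overlapped between groups.

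Ligands and receptors can be set side by side. For Ccr1, the receptor rose and so did its ligands Ccl6 and Ccl9, while its ligands Ccl3 and Ccl5 did not pass and separated upwards and downwards. For Cx3cr1, the receptor rose and its ligand Cx3cl1 fell. For Ccr2, Cxcr2, Cxcr3 and Cxcr6 the receptor did not pass while at least 1 ligand did. None of these pairings was tested beyond the tests of the single genes.

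The other 30 genes had a mean under 1 FPKM, and Cxcl1 was the 1 gene among them that reached 1 FPKM in any sample. Of these, 8 were listed at 0 in all samples: Ccl1, Ccl21c, Ccl26, Ccl27b, Cxcl13, Xcl1, Ccr6 and Ccr8. The other 22 were above 0, 12 of them with a 0 in at least 1 sample. Beside Cxcl1 and Cxcl2, the most abundant were Ccr10, the receptor of Ccl27a, at 0.220 and 0.618 FPKM in siScr and 0.741 and 0.420 FPKM in siZBP1, and Cxcr5, the B cell follicle receptor, at 0.436 and 0.289 FPKM in siScr and 0.320 and 0.550 FPKM in siZBP1. Both overlapped between groups. None of the 6 genes for eosinophil and Th2 chemokines had a mean of 1 FPKM.

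Many of the genes lie side by side in the genome, and position was not used to choose them. Chromosome 11 held 14 of the 58 genes and 10 of the 28 tested, of which 5 were higher and 0 lower. Of all 28, 35.7% were higher and 7.14% lower, and of all tested genes 13.5% and 14.8%. Ccl2, Ccl7, Ccl11, Ccl12 and Ccl8 follow each other between 82035571 and 82116799 on the plus strand of chromosome 11 on GRCm38, and Ccl5, Ccl9, Ccl6, Ccl3 and Ccl4 between 83525778 and 83664683. In the second group 4 genes in a row had positive log2 fold changes, from 0.63 for Ccl4 to 0.95 for Ccl6, of which Ccl3 and Ccl4 did not pass and were at 0.45 and 0.36 without siScr replicate 1, beside -0.84 for Ccl5 at its end. On chromosome 9, 7 genes were tested, with 2 higher and 1 lower. In a receptor group there, Ccr1 was higher while the nearby genes Ccr3 and Ccr2 had log2 fold changes of 0.04 and -0.26. Only genes of the set were placed, and other genes may lie between them. Neighbouring genes are not independent, and no test over position was made.

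**Figure D3:**
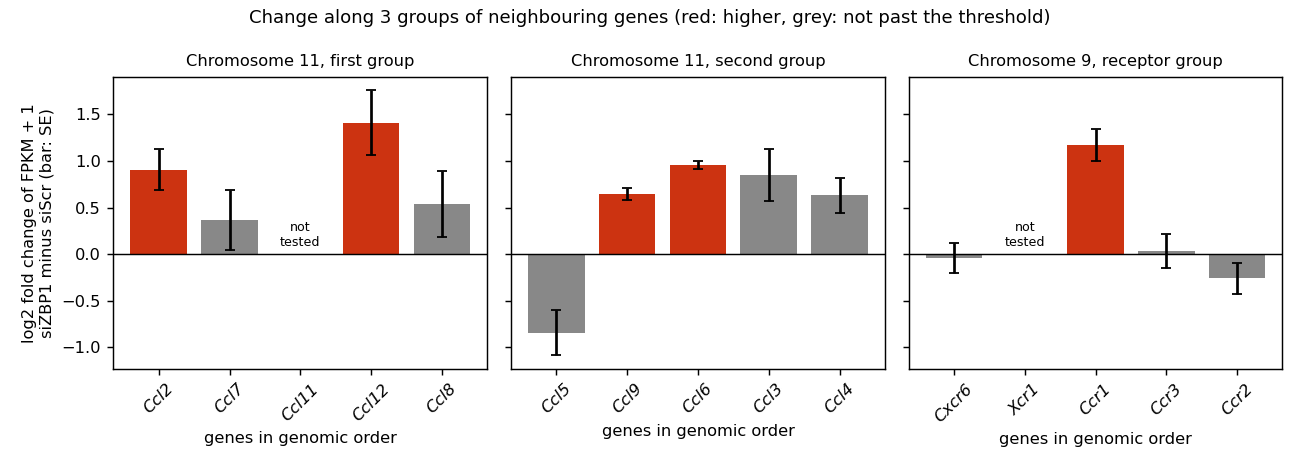
Log2 fold change of FPKM + 1, siZBP1 minus siScr, with its standard error, for genes in their order along chromosomes 11 and 9. Red marks genes higher at an adjusted p under 0.05 and grey those that did not pass. Genes that follow each other within the set differ, with Ccl5 at -0.84 before Ccl9 at 0.64 and Ccr1 at 1.17 before Ccr3 at 0.04.

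Promoter motifs were counted in the 250 bases before the start site of the 21 tested genes with a RefSeq promoter, 7 higher, 2 lower and 12 that did not pass. The NF-κB consensus, which 3.75% of 27025 promoters held, was in 2 of the 7, 0 of the 2 and 1 of the 12, the last being Ccr3. The AP-1 letters, in 6.87% of promoters, were in the same 3 genes. The TATA box, in 13% of promoters, was in 3 of the 7, in both of the 2 and in 3 of the 12. The interferon response letters, in 7.16%, were in 1 of the 7, 0 of the 2 and 4 of the 12, which include Cxcl9 and Ccl3. The PU.1 letters, in 23.1%, were in 2, 1 and 6, the C/EBP letters, in 9.55%, in 0, 0 and 2, and the TCF/LEF letters, in 14.9%, in 0, 0 and 4. A match is a description of the sequence and not a binding site, and the absence of a match says only that these letters are not in the window.

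Genes that act upstream or downstream of chemokines were taken from lists. Of 36 tested genes for inducers of chemokine transcription, 13 were higher (36.1%) and 2 lower (5.56%), with a median log2 fold change of 0.15. Over all tested genes the shares were 13.5% and 14.8%. Il1b, an inflammatory cytokine that induces many chemokines, was at 0.714 and 1.02 FPKM in siScr and at 3.10 and 5.77 FPKM in siZBP1, with both siZBP1 values above both siScr values (adjusted p = 0.0210 by limma). Tlr2, a receptor for bacterial lipoproteins, rose by 0.82 on the log2 scale, and Ikbkg and Chuk, subunits of the IκB kinase, fell by 0.48 and 0.23. Of 24 tested genes of the interferon response, 2 were higher and 2 lower, 8.33% each, with a median of -0.08. Irf7, the transcription factor that amplifies type I interferon, fell by 1.17 on the log2 scale and Ifit1 by 0.44, while Irf1 and the receptor gene Ifnar1 rose by 0.40 and 0.20.

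Of 38 tested genes for signalling from chemokine receptors, 8 were higher (21.1%) and 4 lower (10.5%), with a median log2 fold change of 0.01. Over all tested genes the shares were 13.5% and 14.8%. Pik3cd and Pik3r5, subunits of phosphoinositide 3-kinases of leukocytes, each rose by 0.51 on the log2 scale, and Gnai1, an inhibitory G protein subunit, and Grk6, a receptor kinase, fell by 0.76 and 0.41. Of 12 tested genes for processing and binding of chemokines, 1 was higher (8.33%) and 9 were lower (75%), with a median of -0.48. The heparan sulfate proteoglycan Sdc1 was at 61.4 and 56.6 FPKM in siScr and at 32.6 and 31.5 FPKM in siZBP1 and fell by 0.86 on the log2 scale, Sdc3 fell by 0.78, and the protease Adam17, which sheds Cx3cl1, rose by 0.31. The chemokine and receptor genes and the genes for processing and binding of chemokines thus had opposite shares of calls, a difference that was not tested. Pf4 and Ccrl2, a platelet chemokine and an atypical receptor under other symbols, separated upwards and did not pass, with adjusted p-values of 0.0742 and 0.0508 by limma.

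**Figure D4:**
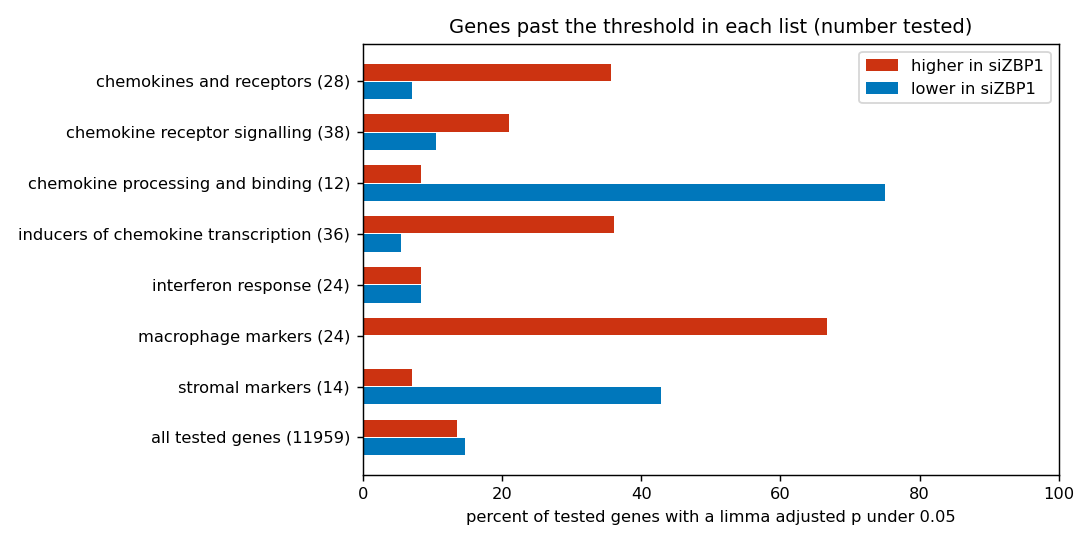
Percent of the tested genes of each list with a limma adjusted p under 0.05, higher in red and lower in blue, with the number tested in brackets. Bars for chemokines and receptors reach 35.7% and 7.14%, those for macrophage markers 66.7% and 0%, and those for all tested genes 13.5% and 14.8%.

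The called macrophage markers rose, and most called stromal markers fell. Of 25 macrophage markers in the table, none was at 0, 24 were tested, 16 were higher and 0 lower, with a median log2 fold change of 0.39. These calls were 66.7% and 0% of the tested markers, beside 13.5% and 14.8% of all tested genes. The macrophage markers summed to 12655 and 13790 FPKM in siScr and 18818 and 17964 FPKM in siZBP1. Lyz2 rose by 0.81 and C1qb by 0.48 on the log2 scale, while Ctss, at 2101 and 2063 FPKM in siScr and 1872 and 1884 FPKM in siZBP1, did not pass. The 28 tested chemokine and receptor genes, called or not, had a median log2 fold change of 0.22. Of 14 tested stromal markers, 1 was higher (7.14%) and 6 were lower (42.9%). The stromal list summed to 6328 and 5354 FPKM in siScr and 3943 and 3996 FPKM in siZBP1. Col1a1 fell by 1.26 on the log2 scale, and Col1a2 and Itgb1 did not pass. The 1 stromal marker that was higher was Nt5e. It was at 2.73 and 5.48 FPKM in siScr and at 20.8 and 21.3 FPKM in siZBP1, a log2 fold change of 2.16. The part of these shifts in the chemokine and receptor results was not tested.

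Most markers of other leukocytes had a mean under 1 FPKM, and Csf3r, S100a8, Cd4 and Itgax were above it. Of the neutrophil markers, Elane, Mpo, Ltf, Retnlg and S100a9 were at 0 in all samples, and the summed level ran from 8.05 to 9.31 FPKM in siScr and from 7.89 to 11.6 FPKM in siZBP1. Csf3r, at 5.92 to 8.04 FPKM, made up most of it, and S100a8 reached 4.52 FPKM in siZBP1 replicate 2. Of the lymphocyte markers, Cd3g and Ncr1 were at 0, and the summed level was 4.88 and 4.62 FPKM in siScr and 6.26 and 6.36 FPKM in siZBP1, mostly Cd4, which rose by 0.47 on the log2 scale. Flt3, a dendritic cell marker, was at 0, and Itgax, also found on macrophages, rose by 0.49. Endothelial markers summed to 6.12 and 4.72 FPKM in siScr and 4.96 and 5.68 FPKM in siZBP1.

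The siScr samples were the less alike in these genes. The ratio of the higher to the lower replicate had a median of 1.34 in siScr and 1.10 in siZBP1 over the 28 tested genes, and it was larger in siScr for 20 of them. Over all tested genes the medians were 1.07 and 1.06, and siScr was the wider pair in 56.0%. The ratio was widest in siScr for Ccl12, Ccl8 and Ccl7, at 2.36, 2.17 and 1.98.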

How the data were processed

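The authors deposited FPKM per gene symbol for each of 4 samples and the group means, which were not used. Libraries were made with a TruSeq kit, and reads were mapped to mm10, the same build as GRCm38, with TopHat 2.0.12. FPKM were extracted with HTSeq per the methods, whereas the submitters' processing notes name Cufflinks. The annotation and the strand setting are not given in the sources used here.

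The members and lists were chosen with earlier results of these data known. All genes with a mean of at least 1 FPKM were tested together on log2(FPKM + 1) with limma 3.58.1 in R 4.3.3, with a variance trend and no covariate, and p-values were adjusted by Benjamini and Hochberg at 0.05. Fold changes on this scale understate changes of low genes. Ratios of group means were counted over 1.5-fold. Apart from genes not reported here, every member with a mean of at least 1 FPKM was named, as were members with 1 FPKM in any sample, the 3 most abundant others, and in each list the called genes with the largest changes, up to 2 each way, or the 3 most abundant markers. A few further genes (Csf1r, Pdgfra, Thy1, Nt5e, Csf3r, S100a8, markers at 0, Cd4, Itgax) were named after their values were seen. The fit was tested on simulated data. Positions came from GENCODE M21 on GRCm38 and promoters from RefSeq on GRCm38.p6. Python 3.11.15, numpy 2.4.6, pandas 2.3.3 and matplotlib 3.10.9 were used. Alternatives were 14 for limma and 7 for the ratio.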

Additional observations from a re-analysis of the deposited data

How the results depend on the processing

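Over settings that used all samples, between 8 and 11 of the genes were called higher by limma. The number called lower was 2, except for 1 with a mean of at least 5 FPKM, where Cx3cl1 was not tested, and 4 with the replicate block, which added Ccl5 and Cxcl9. The block also brought the number called higher to 11, with Ccl4 added. Same-numbered samples deviated with a correlation of -0.063 over 11959 genes, which showed no strong shared shift, and the block was not used. The correlation cannot tell whether the samples were prepared in pairs. With each sample left out in turn, between 0 and 12 genes were called higher and between 0 and 4 lower. Both counts were 0 without siZBP1 replicate 1 or without siZBP1 replicate 2, where 45 and 60 of all 11959 genes were called and the lone siZBP1 sample was assumed to vary like the siScr samples. The 12 called genes kept their sign in all 117 values with all samples, and 111 of these stayed past the threshold. The 6 that did not were Ccl2 and Ccl12 with no filter, no variance trend and robust moderation. By the ratio of means, 3 genes were over 2-fold higher and 1 over 2-fold lower. With 1 added to both means, 3 were over 1.5-fold lower, and with each sample left out between 6 and 13 were higher and between 2 and 7 lower, the fewest in both directions without siScr replicate 1. Genes that did not pass changed sign as follows, and the cause was not tested. With quantile normalization the log2 fold changes were 0.041 for Cxcl14, 0.043 for Ccl25 and 0.072 for Cxcr6. With each sample left out they ran from -0.11 to 0.84 for Ccl7, -0.18 to 0.12 for Cxcl14, -0.14 to 0.21 for Ccr3, -0.24 to 0.43 for Ccl27a, -0.18 to 0.091 for Ccl25, -0.30 to 0.047 for Ackr3, -0.30 to 0.032 for Cxcr2 and -0.18 to 0.10 for Cxcr6. Depth limits genes under 1 FPKM, for which few fragments stand behind a value.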
